A study of Mus musculus with 18 samples.

Results

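The genes of the 4 mouse Hox clusters were followed in 2 immortalized lines of mouse embryonic fibroblasts. Members were the entries whose symbol is Hox, a cluster letter from a to d and a paralogue number. Of 39 such genes in the mouse, 28 were listed in at least 1 of 3 tables of genes that differed between the lines, out of 10133 distinct entries in those tables. One line, S51A, carried the eIF2aS51A genotype, in which the serine of the translation factor eIF2α that stress kinases phosphorylate is an alanine. The other line was wild type (WT). Both lines were untreated (0 min) or were given 500 µM hydrogen peroxide (H2O2) for 15 or 120 min. The labels give 3 samples for each of the 6 groups, but the design text of the series speaks of duplicates. The files combine them into 1 FPKM value (fragments per kilobase of transcript, scaled to library size) per line and time. No spread between samples, library depth or SD can therefore be given. Each genotype is 1 line, so genotype and the history of the line cannot be told apart.

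Hox genes encode homeodomain transcription factors that give cells their position along the body axis and the limbs. Within a cluster the genes lie in the order in which they are used, from low paralogue numbers (head and neck) to high ones (lumbar, sacral and distal limb). Genes with the same number in different clusters are paralogues with overlapping roles. Fibroblasts keep in culture a Hox pattern that reflects the body site they came from. Polycomb complexes hold unused Hox genes silent, and retinoic acid switches on the genes at the low-numbered end.

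In untreated cells the 2 lines had different Hox patterns, and the difference followed the clusters. Cluster A and cluster D genes were mostly higher in S51A, and cluster C and cluster B genes mostly lower. The table for 0 min listed 23 of the 39 Hox genes (59.0%), while it listed 32.8% of all protein-coding symbols in RefSeq. How many genes the authors tested is not known, so that share is a floor for the background. Of the 23 listed genes, 12 were higher in S51A and 11 lower, close to the 49.6% higher among all listed genes, and to the 50.4% lower, so the calls leaned to neither side by count. By level they did not balance, since the listed genes summed to 145 FPKM in S51A and 262 FPKM in WT. The differences were large: 19 of the 23 (82.6%) reached 2-fold or had WT listed at 0, against 37.0% of all listed genes. WT was listed at 0 for 5 of the 23 (21.7%), against 1.09% of all listed genes. S51A was listed at 0 for none. After 15 min 25 Hox genes were listed (64.1%, background 35.6%), 14 higher and 11 lower in S51A (background 49.9% higher and 50.1% lower). After 120 min 15 were listed (38.5%, background 26.1%), 8 higher and 7 lower (background 50.9% higher and 49.1% lower). At 15 min 16 of 25 (64.0%) reached 2-fold or had WT at 0, against 32.5% of all listed genes. Of these 16, 9 were higher and 7 lower in S51A, with 20.2% and 12.3% of all listed genes on those sides. At 120 min it was 12 of 15, against 47.3%. WT was listed at 0 for 5 Hox genes at 15 min (20.0%, background 1.35%) and 2 at 120 min (13.3%, background 1.27%). None of these backgrounds was matched to the Hox genes on level. Most Hox levels are low, and how far level alone sets the shares at 2-fold or at 0 was not tested.

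Every call rests on the q-value in the authors' deposited table, at most 0.05 for each listed gene. At 0 min the lowest q-value in the authors' deposited table, 0.000118, was shared by 4905 of its 7555 genes and by 18 of the 23 Hox genes. A gene that is not listed was either not called or not tested, which says nothing about its level. Separate cultures are not mentioned in the labels, so the q-values may measure technical spread only. Of 13 fibroblast marker genes, 10 were listed at 0 min (background 32.8% listed), 6 higher and 4 lower in S51A (background 49.6% higher). They summed to 3840 FPKM in S51A and 2640 FPKM in WT. The sum rests largely on Col1a1, at 1160 FPKM in S51A and 241 FPKM in WT, and Col1a2, at 1100 FPKM in S51A and 155 FPKM in WT. The 4 lower in S51A were Vim, at 1070 FPKM in S51A and 1870 FPKM in WT, Dcn, Thy1 and Twist1. No marker on the epithelial, endothelial, muscle or germ cell lists was listed at 0 min. Of 5 neural markers 3 were listed, 2 lower and 1 higher in S51A, the tubulin gene Tubb3 at 74.0 FPKM in S51A and 16.2 FPKM in WT, and of 5 blood markers Cd68 was listed, at 1.11 FPKM in S51A and 1.97 FPKM in WT. The part of other cell types in the Hox values was not tested. In bulk RNA, fewer cells that express a gene and less RNA per cell cannot be told apart.

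**Figure D1:**
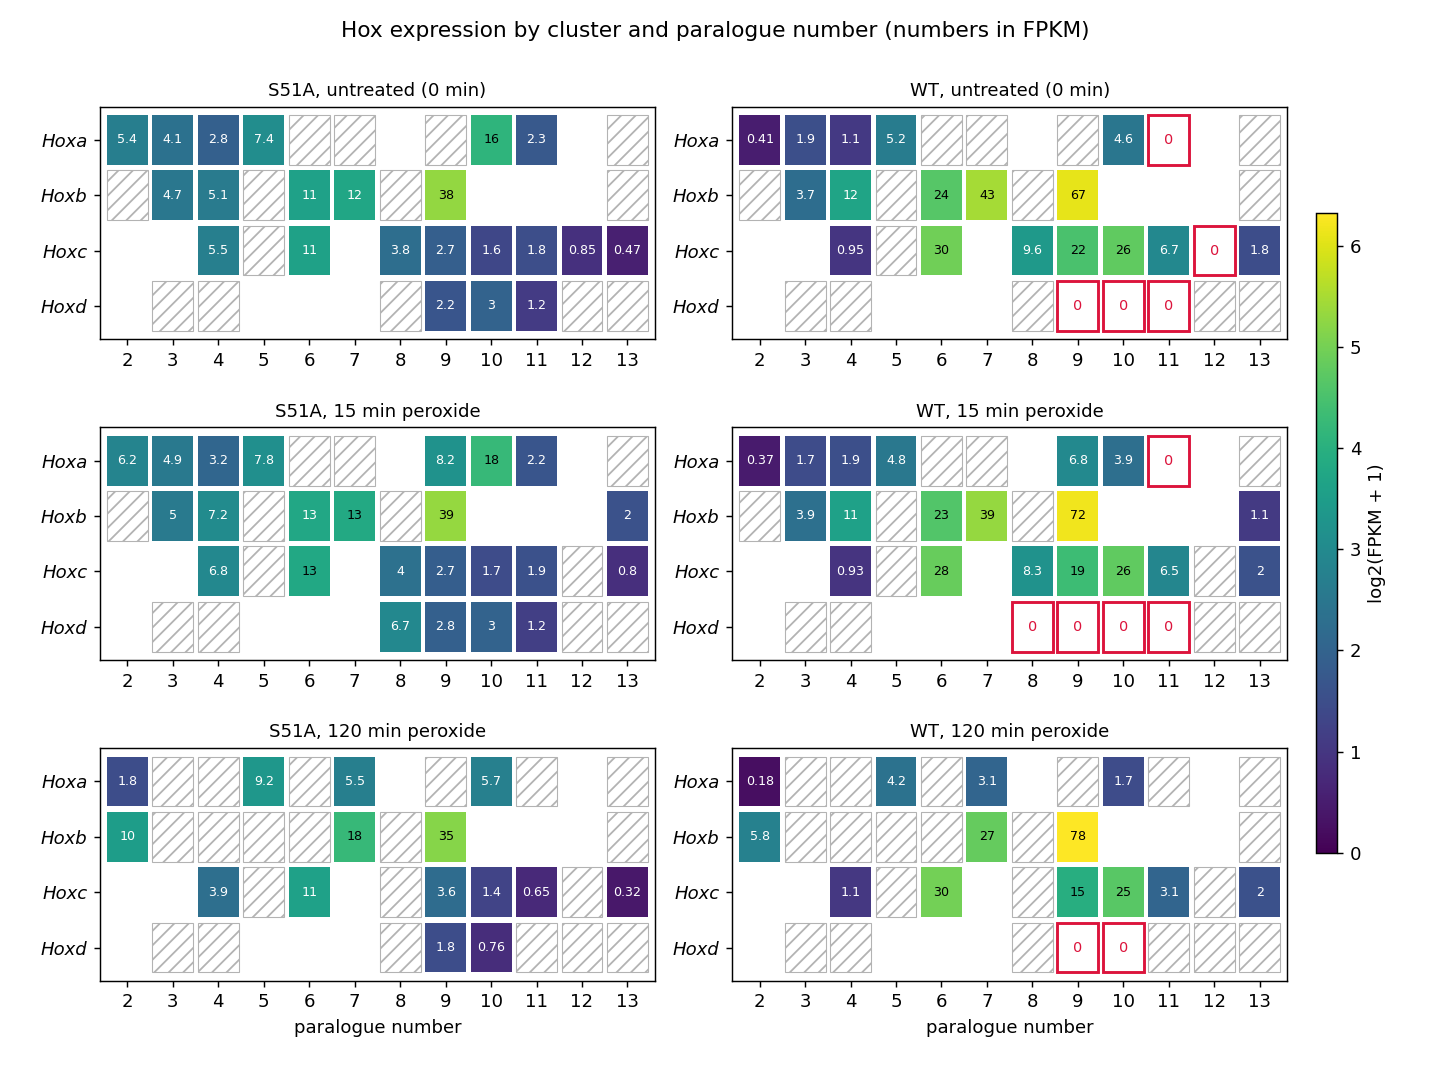
Level in FPKM of Hox genes by cluster (rows) and paralogue number from 2 to 13 (columns), S51A on the left and WT on the right, at 0, 15 and 120 min. Colour is log2(FPKM + 1), hatched cells are genes not listed at that time, red frames are genes listed at 0, and blanks are positions with no gene. In WT the high values lie in clusters B and C, and every cluster D gene listed is at 0. In cluster A the listed values in S51A reach paralogue 11 at 0 and 15 min, with hatched gaps, and Hoxa11 is at 0 in WT at those times.

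In cluster D, none of the listed genes had a value above 0 in WT. Few of its genes were listed, 33.3% of 9 at 0 min (background 32.8%), 44.4% at 15 min (background 35.6%) and 22.2% at 120 min (background 26.1%). The listed members spanned chromosome 2 from 74679558 to 74707932 (mm10, 28375 bases, plus strand). Hoxd10, which acts in lumbar motor neurons and the hindlimb (74691891 to 74695106), was at 2.95 FPKM in S51A and listed at 0 in WT in untreated cells. It was at 2.99 FPKM in S51A and at 0 in WT after 15 min, and at 0.758 FPKM in S51A and at 0 in WT after 120 min. Hoxd9, its neighbour, was at 2.20, 2.77 and 1.75 FPKM in S51A at 0, 15 and 120 min, and listed at 0 in WT at each time. Hoxd11, which with Hoxa11 shapes the forearm bones, was at 1.16 FPKM in S51A at 0 min and 1.24 FPKM at 15 min, with WT at 0 both times. Hoxd8 was listed only at 15 min, at 6.68 FPKM in S51A and 0 in WT, the highest level among the listed cluster D genes. These are low levels, and no fold can be given against a value of 0. Hoxd1, Hoxd3, Hoxd4, Hoxd12 and Hoxd13 were in no table.

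The genes that flank cluster D went the other way. Lnp, which encodes the endoplasmic reticulum protein lunapark and lies beyond the high-numbered end, was at 6.73 FPKM in S51A and 10.5 FPKM in WT at 0 min, 1.56-fold lower in S51A. Mtx2, a mitochondrial import gene beyond the low-numbered end, was at 56.1 FPKM in S51A and 101 FPKM in WT, 1.80-fold lower in S51A. Both were also lower in S51A after 15 min, at 7.01 FPKM against 10.1 FPKM in WT for Lnp and 60.5 FPKM against 87.4 FPKM in WT for Mtx2. Of all genes on the list of cluster flanks, 2 of 5 listed at 0 min were higher in S51A (background 49.6%).

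In cluster A, 8 of 9 listed genes were higher in S51A at each time they were listed. At 0 min 85.7% of its listed genes were higher, against 49.6% of all listed genes. The cluster lies on the minus strand of chromosome 6. Hoxa2, which sets the identity of the second branchial arch, was 13.2-fold higher, at 5.39 FPKM in S51A and 0.409 FPKM in WT in untreated cells. Hoxa2 stayed on that side with 6.19 FPKM in S51A and 0.371 FPKM in WT at 15 min, and 1.75 FPKM in S51A and 0.183 FPKM in WT at 120 min. Hotairm1, a non-coding RNA transcribed from the low-numbered end of the cluster, was lower in S51A, with 14.3 FPKM in S51A and 32.0 FPKM in WT at 0 min and 20.1 FPKM in S51A and 43.4 FPKM in WT at 15 min.

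Hoxa3, needed for the thymus and parathyroid, was at 4.14 FPKM in S51A and 1.87 FPKM in WT at 0 min, a 2.22-fold difference. Hoxa4 was at 2.79 FPKM in S51A and 1.07 FPKM in WT. Hoxa5, which acts in lung and neck-to-thorax patterning, was at 7.36 FPKM in S51A and 5.24 FPKM in WT, 1.40-fold higher with a q-value of 0.0311 in the authors' deposited table. The deposited tables give Hoxa3, Hoxa4 and Hoxa5 one common locus with overlapping transcripts, which leaves the split of reads among them uncertain. At 15 min Hoxa3 was at 4.92 FPKM in S51A and 1.71 FPKM in WT, and Hoxa4 at 3.18 FPKM in S51A and 1.85 FPKM in WT. Neither was listed at 120 min. For Hoxa5 the fold was 1.62 at 15 min, with 7.78 FPKM in S51A and 4.79 FPKM in WT, and 2.20 at 120 min, with 9.25 FPKM in S51A and 4.20 FPKM in WT. Hoxa7 was listed only at 120 min, at 5.50 FPKM in S51A and 3.12 FPKM in WT. A non-coding RNA next to it, Mira, was also listed at 120 min alone, at 20.5 FPKM in S51A and 10.9 FPKM in WT.

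At the high-numbered end of cluster A lies Hoxa10, known for its roles in the lumbar spine and the uterus. Among the listed genes of the cluster it had the highest level in untreated S51A cells. It was at 16.2 FPKM in S51A and 4.63 FPKM in WT at 0 min, a 3.51-fold difference. It was at 17.8 FPKM in S51A and 3.86 FPKM in WT at 15 min, and 5.66 FPKM in S51A and 1.73 FPKM in WT at 120 min. Hoxa11 (deposited locus 52242105 to 52249769) was at 2.33 FPKM in S51A and listed at 0 in WT at 0 min. It was at 2.20 FPKM in S51A and 0 in WT at 15 min. Hoxa11os, the RNA from its opposite strand, was at 1.12 FPKM in S51A and 0 in WT at 0 min. Both entries carry the same deposited locus, which also takes in the upstream window of Hoxa11 printed below. The libraries kept strand, but the sources used here do not give the strand setting of the counting. The reads of Hoxa11 and Hoxa11os may therefore not have been separated. Hoxa9, a blood progenitor and leukaemia gene, was listed only at 15 min with the smallest Hox difference of that table, 8.22 FPKM in S51A and 6.82 FPKM in WT. Hoxa6 and Hoxa13 were in no table.

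The upstream sequences of some of these genes are given as context for genes that were near 0 in one line. The 250 bases before the RefSeq start (GRCm38.p6, the mm10 assembly) are printed for some genes at or near 0 in WT. Hoxb4, a gene lower in S51A, is printed for contrast. The windows of Hoxd9 and Hoxd11, also listed at 0 in WT, are not printed. Capitals mark CpG dinucleotides, the sites of DNA methylation.
Hoxd10, chr2:74691641-74691890, plus strand: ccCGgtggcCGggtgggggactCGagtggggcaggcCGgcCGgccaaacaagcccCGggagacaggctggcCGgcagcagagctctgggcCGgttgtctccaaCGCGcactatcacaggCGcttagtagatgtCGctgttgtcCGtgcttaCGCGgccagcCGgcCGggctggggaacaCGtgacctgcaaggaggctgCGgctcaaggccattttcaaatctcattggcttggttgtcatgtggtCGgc
Hoxd8, chr2:74704365-74704614, plus strand: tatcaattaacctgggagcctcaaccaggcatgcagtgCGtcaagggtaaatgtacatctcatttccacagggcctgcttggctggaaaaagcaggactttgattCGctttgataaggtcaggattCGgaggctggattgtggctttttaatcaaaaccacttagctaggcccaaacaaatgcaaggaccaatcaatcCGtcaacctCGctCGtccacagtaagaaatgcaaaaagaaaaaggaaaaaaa
Hoxa11, chr6:52245811-52246060, minus strand: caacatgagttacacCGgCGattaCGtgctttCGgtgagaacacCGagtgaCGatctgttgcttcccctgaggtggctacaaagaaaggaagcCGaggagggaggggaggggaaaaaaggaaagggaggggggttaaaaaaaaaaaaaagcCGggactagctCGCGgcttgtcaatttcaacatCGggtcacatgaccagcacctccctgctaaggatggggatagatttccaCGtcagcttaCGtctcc
Hoxa2, chr6:52164832-52165081, minus strand: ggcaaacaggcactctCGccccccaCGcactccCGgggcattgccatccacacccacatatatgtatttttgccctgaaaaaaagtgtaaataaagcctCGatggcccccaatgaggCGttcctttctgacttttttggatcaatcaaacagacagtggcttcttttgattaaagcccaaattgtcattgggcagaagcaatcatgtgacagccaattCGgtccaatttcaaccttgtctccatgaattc
Hoxb4, chr11:96318017-96318266, plus strand: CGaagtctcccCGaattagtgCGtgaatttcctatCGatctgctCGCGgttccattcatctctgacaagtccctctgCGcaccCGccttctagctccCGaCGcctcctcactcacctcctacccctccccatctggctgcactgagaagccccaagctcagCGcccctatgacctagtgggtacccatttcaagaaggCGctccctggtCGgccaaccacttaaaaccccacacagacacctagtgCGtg

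Hoxd10 held 20 CpGs, Hoxa11 13, Hoxd8 6 and Hoxa2 6, and Hoxb4 held 14. Of the windows not printed, that of Hoxd9 held 13 and those of Hoxd11 held 2 and 20. The median was 12.5 over the 24 Hox windows of 22 genes in the RefSeq table and 6 over all 32851 windows. The letters TGATNNAT, a site form bound by Hox and Pbx proteins together, were searched on both strands. They occurred once upstream of Hoxa2 and in none of the other printed windows. The Hoxd11 window with 20 CpGs, not printed, also held them once. They were in 16.7% of Hox windows and in 7.68% of all windows. Direct repeats of a retinoic acid receptor half-site, AGGTCA or AGTTCA repeated after NNNNN, were searched in the same way. They were in no Hox window, and in 0.00913% (AGGTCA) and 0.0213% (AGTTCA) of all windows.

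In cluster C, 6 of 8 listed genes were lower in S51A and 2 were higher. At 0 min 25.0% of its listed genes were higher, against 49.6% of all listed genes. The listed members spanned chromosome 15 from 102921131 to 103036852 (plus strand). Hoxc10, a gene of lumbar motor neurons and the hindlimb (102966796 to 102971897), had the largest fold at 0 and 120 min of any Hox gene with values in both lines, and Hoxa2 had it at 15 min. Hoxc10 was at 1.55 FPKM in S51A and 26.5 FPKM in WT at 0 min, 17.1-fold lower in S51A. It was at 1.72 FPKM in S51A and 26.5 FPKM in WT at 15 min, and 1.40 FPKM in S51A and 24.6 FPKM in WT at 120 min. Among the 3793 genes lower in S51A at 0 min with values in both lines, it ranked 48 by fold. Hoxc9, which gives thoracic motor neurons their identity, was at 2.69 FPKM in S51A and 21.9 FPKM in WT at 0 min, 8.11-fold lower. At 15 min it was at 2.66 FPKM in S51A and 19 FPKM in WT, and at 120 min at 3.61 FPKM in S51A and 14.6 FPKM in WT, so the fold was 4.06 by then.

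The difference was smaller toward the low-numbered part of cluster C. Hoxc8, which patterns the lower neck and thorax, was at 3.81 FPKM in S51A and 9.58 FPKM in WT at 0 min and at 4.03 FPKM in S51A and 8.34 FPKM in WT at 15 min. Hoxc6, a thoracic gene, was at 11.2 FPKM in S51A and 29.7 FPKM in WT at 0 min, 2.66-fold lower. It was at 12.9 FPKM in S51A and 27.9 FPKM in WT at 15 min and at 11.1 FPKM in S51A and 30.5 FPKM in WT at 120 min. At the end of the cluster the direction turned. Hoxc4 was higher in S51A at each time, at 5.50, 6.77 and 3.89 FPKM in S51A at 0, 15 and 120 min, against 0.953, 0.927 and 1.05 FPKM in WT. Between Hoxc4 and Hoxc6 lie 22513 bases and Hoxc5, which was in no table.

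At the high-numbered end, Hoxc11 was at 1.84 FPKM in S51A and 6.68 FPKM in WT at 0 min and at 1.95 FPKM in S51A and 6.45 FPKM in WT at 15 min. At 120 min it was at 0.646 FPKM in S51A and 3.10 FPKM in WT. Hoxc13, needed for hair and nails, was at 0.473 FPKM in S51A and 1.79 FPKM in WT at 0 min, 0.796 FPKM in S51A and 2.03 FPKM in WT at 15 min, and 0.323 FPKM in S51A and 1.97 FPKM in WT at 120 min. Both were lower in S51A at each time. Hoxc12, which lies between them, was listed at 0 min only and in the opposite direction, at 0.847 FPKM in S51A and 0 in WT. Outside the cluster, the flanking gene Calcoco1, a transcriptional coactivator and autophagy receptor gene, was at 16.8 FPKM in S51A and 3.97 FPKM in WT at 0 min. Smug1, a DNA repair glycosylase gene on the other flank, was at 6.23 FPKM in S51A and 4.96 FPKM in WT. Cbx5, a heterochromatin protein gene farther out on the flank of Smug1, was listed later and lower in S51A, with 58.1 FPKM in S51A and 85 FPKM in WT at 15 min. Around cluster A, Snx10 was at 28.2 FPKM in S51A and 34.5 FPKM in WT at 0 min, and Skap2 at 33.1 FPKM in S51A and 26.4 FPKM in WT at 15 min.

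**Figure D2:**
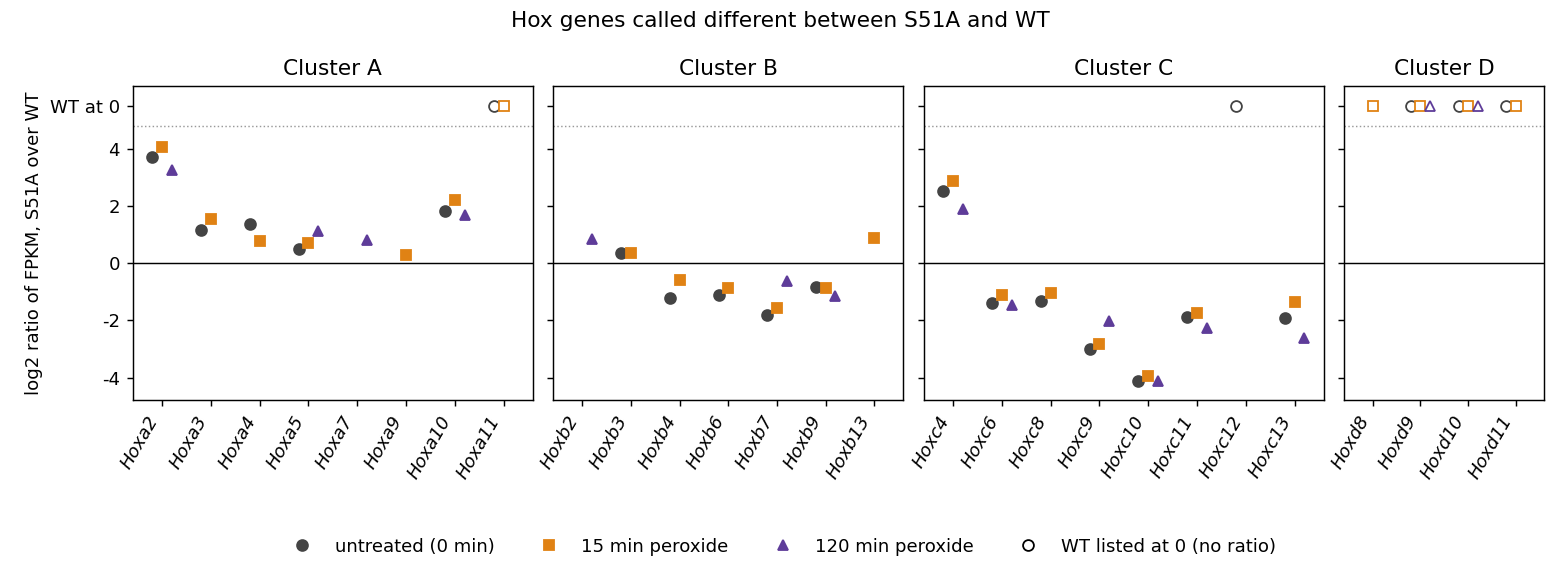
Log2 ratio of FPKM, S51A over WT, for listed Hox genes in cluster order at 0 (circles), 15 (squares) and 120 min (triangles). Open symbols at the top are genes listed at 0 in WT, which have no ratio. Each cluster A gene drawn is above 0 or open. Most of cluster C is below 0, with Hoxc4 above and Hoxc12 open.

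Over the listed genes, cluster B had the highest summed levels in both lines, and its middle part was lower in S51A. The listed members spanned chromosome 11 from 96194361 to 96354014 (plus strand). Of 7 listed genes 4 were lower and 3 higher in S51A, which is near the even split of all listed genes. At 0 min 20.0% of the cluster B genes listed were higher, against 49.6% of all listed genes. The share was 33.3% at 15 min (background 49.9%) and 33.3% at 120 min (background 50.9%), over few genes. Hoxb9, a thoracic patterning gene, had the highest level of the listed Hox genes in either line. It was at 38.1 FPKM in S51A and 67.2 FPKM in WT at 0 min, 1.77-fold lower in S51A. It was at 39.1 FPKM in S51A and 72.0 FPKM in WT at 15 min, and 35.3 FPKM in S51A and 77.7 FPKM in WT at 120 min. Hoxb7 was at 12.4 FPKM in S51A and 43.1 FPKM in WT at 0 min, a 3.48-fold difference, and at 13.1 FPKM in S51A and 39.1 FPKM in WT at 15 min. At 120 min the gap was 1.53-fold, with 17.9 FPKM in S51A and 27.3 FPKM in WT.

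Hoxb6 was at 11.1 FPKM in S51A and 24.3 FPKM in WT at 0 min and at 12.7 FPKM in S51A and 23.3 FPKM in WT at 15 min. Hoxb4, known for its role in blood stem cells, was at 5.13 FPKM in S51A and 12 FPKM in WT at 0 min and at 7.21 FPKM in S51A and 11 FPKM in WT at 15 min. Neither was listed at 120 min. Hoxb3, only 1487 bases from Hoxb4 by the deposited loci, had the opposite direction, with 4.72 FPKM in S51A and 3.71 FPKM in WT at 0 min and at 4.99 FPKM in S51A and 3.92 FPKM in WT at 15 min. Its fold was 1.27 at both times. Hoxb2, which acts in facial motor neurons, was listed only at 120 min, at 10.3 FPKM in S51A and 5.78 FPKM in WT. Hoxb13, the last gene of the cluster and 74730 bases beyond Hoxb9, was listed only at 15 min, at 2.01 FPKM in S51A and 1.09 FPKM in WT. Hoxb1, Hoxb5 and Hoxb8 were in no table.

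Summed over the listed genes, Hox expression at 0 min came to 145 FPKM in S51A and 262 FPKM in WT, and the clusters took unlike shares of it. Cluster A gave 27.0% of the sum in S51A and 5.53% in WT, and cluster D gave 4.37% in S51A and 0% in WT. Cluster C gave 19.3% in S51A and 37.1% in WT. Cluster B was the largest part in both, with 49.4% in S51A and 57.4% in WT. The order was alike at 15 min, where cluster A gave 29.4% in S51A and 8.03% in WT, and cluster C 17.6% in S51A and 34.7% in WT. At 120 min cluster A gave 20.3% in S51A and 4.71% in WT, and cluster C 19.2% in S51A and 38.7% in WT. Cluster B then gave 58.2% in S51A and 56.6% in WT, so its share was no longer the smaller one in S51A. These sums hold only genes called different, so genes that both lines express alike are missing from them, and they have no error. Without the highest gene of a cluster in each line, cluster A gave 17.7% in S51A (without Hoxa10) and 3.6% in WT (without Hoxa5) at 0 min. Cluster B without Hoxb9 gave 31.3% in S51A and 42.7% in WT, cluster C without Hoxc6 gave 12.5% in S51A and 29% in WT, and cluster D without Hoxd10 gave 2.37% in S51A.

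**Figure D3:**
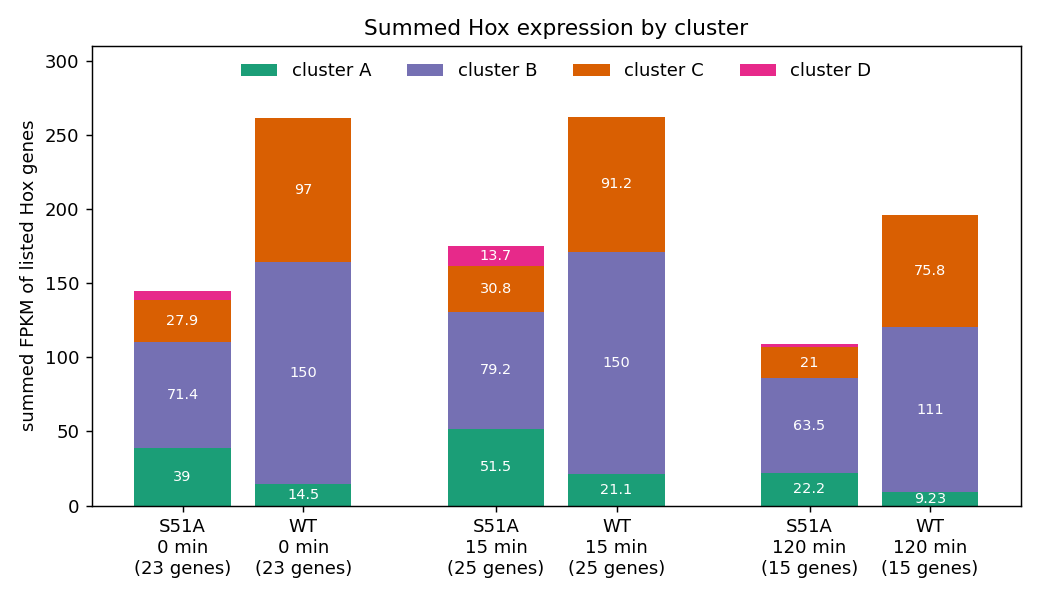
Summed FPKM of the listed Hox genes in each line at each time, stacked by cluster, with the number of genes in the sum under each bar. The S51A bar is lower than the WT bar at each time, at 145, 175 and 109 FPKM in S51A against 262, 263 and 196 FPKM in WT, and has a larger part from cluster A.

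Read across clusters at 0 min, listed paralogues differed in opposite directions at numbers 4, 9, 10 and 11, and in the same direction at numbers 3 and 6. All listed genes were split nearly evenly (49.6% higher in S51A), so mixed groups are common in any case and are only described here. At paralogue number 10, S51A had Hoxa10 as its highest gene and WT had Hoxc10, and the sums over Hoxa10, Hoxc10 and Hoxd10 were 20.7 FPKM in S51A and 31.2 FPKM in WT at 0 min. At number 11 the sums were closer, at 5.33 FPKM in S51A and 6.68 FPKM in WT. Hoxc11 supplied all of the WT sum, since Hoxa11 and Hoxd11 were listed at 0 there. At number 4 the sums over Hoxa4, Hoxb4 and Hoxc4 were 13.4 FPKM in S51A and 14 FPKM in WT, although Hoxb4 was lower in S51A and the other two higher. At number 9 the sums over Hoxb9, Hoxc9 and Hoxd9 were 43.0 FPKM in S51A and 89.0 FPKM in WT. At number 6, where Hoxb6 and Hoxc6 were both lower in S51A, they were 22.2 FPKM in S51A and 53.9 FPKM in WT.

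By zone of the body axis, the low-numbered groups (1 to 3) made up 10.4% of the listed sum in S51A and 2.77% in WT at 0 min. The middle groups (4 to 8) made up 41.0% in S51A and 48.1% in WT, and the high-numbered groups (9 to 13) 48.7% in S51A and 49.2% in WT. The share of the high-numbered groups was thus nearly the same in both lines at 0 min. Of their 11 listed genes 6 were higher in S51A and 5 lower, near the split of all listed genes (49.6% higher). At 120 min the share of the high-numbered groups was 45.3% in S51A and 63.2% in WT, over fewer genes. Over the genes listed at all 3 times, Hoxa2 alone stood for the low-numbered groups, with 5.0% in S51A and 0.197% in WT at 0 min.

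Most pairs of neighbouring listed Hox genes in a cluster had the same direction, as did most neighbouring listed genes of any kind. Of 19 pairs of neighbouring listed Hox genes at 0 min, 14 (73.7%) were called in the same direction, against 62.0% of all neighbouring listed genes within 100000 bases of each other. The breaks included those between Hoxb3 and Hoxb4, between Hoxc4 and Hoxc6, and on both sides of Hoxc12. At 15 min 17 of 21 pairs (81.0%) and at 120 min 9 of 11 (81.8%) had the same direction, against 62.9% and 62.3% of all such pairs. The background pairs were not matched to the Hox pairs on distance. The pairs among Hoxa3, Hoxa4 and Hoxa5 share a locus, and with so few pairs the shares are a description.

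Among the Hox genes that could be judged, none changed sides with peroxide. Of the 22 Hox genes listed at 2 or 3 times, none was called in different directions at different times. Another 6 were listed once and 11 never. The same share over all genes is not given here, so steady direction is not shown to be particular to Hox genes. The 13 genes listed at all 3 times were Hoxa2, Hoxa5, Hoxa10, Hoxb7, Hoxb9, Hoxc4, Hoxc6, Hoxc9, Hoxc10, Hoxc11, Hoxc13, Hoxd9 and Hoxd10. Genes listed at 0 and 15 min but not at 120 min included Hoxa3, Hoxa4, Hoxa11, Hoxb3, Hoxb4, Hoxb6, Hoxc8 and Hoxd11. The table for 120 min is also shorter, with 6119 genes against 7555 at 0 min.

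**Figure D4:**
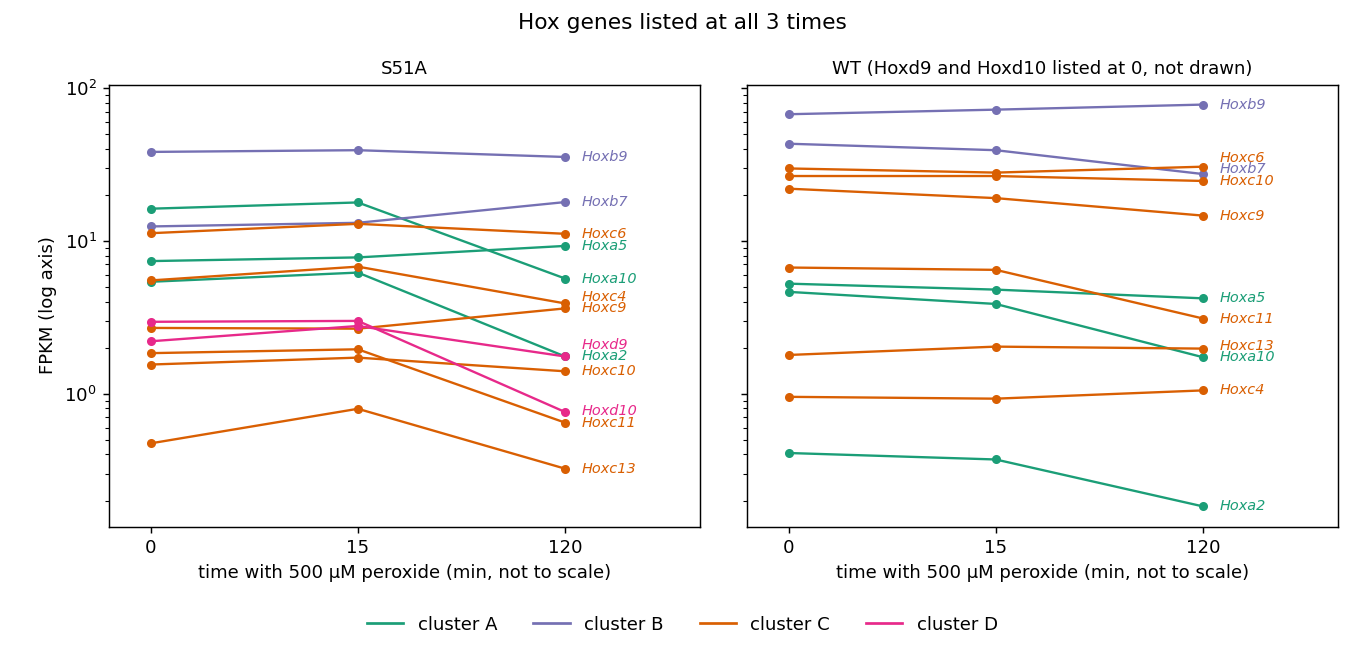
FPKM on a log axis of the Hox genes listed at all 3 times, S51A on the left and WT on the right, coloured by cluster. Most lines are nearly flat from 0 to 15 min. At 120 min Hoxa10 is at 5.66 FPKM in S51A and 1.73 FPKM in WT, and Hoxb7 is at 17.9 FPKM in S51A and 27.3 FPKM in WT.

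Changes with time were described as log2 of FPKM plus 1 against 0 min, centred on the median of all genes listed at both times. The tables may have been scaled separately and no test of time could be made. At 15 min the changes were small, from -0.08 (Hoxa11) to 0.40 (Hoxb4) over 22 genes in S51A and from -0.22 (Hoxa10) to 0.45 (Hoxa4) over 18 genes in WT. At 120 min they were wider, from -1.19 (Hoxa10) to 0.67 (Hoxb7) over 13 genes in S51A, and from -0.95 (Hoxa10) to 0.31 (Hoxb9) over 11 genes in WT. Hoxa10 and Hoxc11 were lower at 120 min in both lines, Hoxc11 with -0.61 in S51A and -0.81 in WT. In S51A Hoxa2 had -1.04 and Hoxd10 had -0.99. Hoxa2 had -0.15 in WT, where its level was already near 0. For 5 of the 11 genes with values in both lines the signs at 120 min were opposite, with 0.67 in S51A and -0.54 in WT for Hoxb7 and 0.50 in S51A and -0.45 in WT for Hoxc9. Hoxa5 had 0.47 in S51A and -0.17 in WT, Hoxc4 had -0.23 in S51A and 0.17 in WT, and Hoxc10 had 0.09 in S51A and -0.01 in WT. The fold between the lines was 1.53 for Hoxb7 and 4.06 for Hoxc9 at 120 min, against 3.48 and 8.11 at 0 min. For Hoxa5 it was 2.20 at 120 min and 1.40 at 0 min, and for Hoxc4 3.71 at 120 min and 5.78 at 0 min. Without centring, each gene named here had the same sign except Hoxc10 in S51A.

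Genes for the partners of Hox proteins were listed in both directions. Of 11 TALE homeodomain genes, which encode the Pbx and Meis cofactors that bind DNA together with Hox proteins and their relatives, 6 were listed at 0 min, 2 higher and 4 lower in S51A. Over all genes, 32.8% of protein-coding symbols were listed at 0 min, and 49.6% of listed genes were higher and 50.4% lower. Meis1 had the largest difference, at 4.0 FPKM in S51A and 0.829 FPKM in WT. Tgif1 was at 28.1 FPKM in S51A and 46.2 FPKM in WT, Pknox1 at 9.51 FPKM in S51A and 6.02 FPKM in WT, and Meis2 at 3.10 FPKM in S51A and 4.72 FPKM in WT. At 15 min 3 were higher and 4 lower (background 49.9% higher), and at 120 min 1 was higher and 4 lower (background 50.9% higher).

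Of 38 Polycomb and Trithorax genes, the repressors and activators of Hox chromatin, 27 were listed at 0 min, 11 higher and 16 lower in S51A (background 32.8% listed, 49.6% higher). The median log2 ratio of the listed genes was -0.30, against -0.28 for all listed genes with values in both lines. Jarid2, a Polycomb recruiting factor, was at 4.53 FPKM in S51A and 1.21 FPKM in WT. Phf19, a Polycomb accessory protein gene, was at 3.10 FPKM in S51A and 10.1 FPKM in WT. Phc2 was at 46.9 FPKM in S51A and 134 FPKM in WT, and Pcgf6 at 16.6 FPKM in S51A and 5.94 FPKM in WT. At 15 min 7 were higher and 20 lower (background 49.9% higher), and at 120 min 3 were higher and 14 lower (background 50.9% higher). The list median was then -0.36 at 15 min, against -0.21 for all listed genes with values in both lines, and -0.59 at 120 min, against 0.40. At 120 min that background depends on level, and was -0.41 over genes with at least 1 FPKM in both lines.

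The retinoic acid list held large differences. Of its 18 genes 10 were listed at 0 min, 7 higher and 3 lower in S51A (background 32.8% listed, 49.6% higher). Crabp2, which carries retinoic acid to its receptor, was 56.5-fold higher, at 20.7 FPKM in S51A and 0.366 FPKM in WT. Dhrs3, which reduces retinaldehyde, was at 16.0 FPKM in S51A and 0.297 FPKM in WT. Rarb, a retinoic acid receptor gene that is itself a retinoic acid target, was at 1.82 FPKM in S51A and 0.0890 FPKM in WT. On the other side, Aldh1a1, which makes retinoic acid from retinaldehyde, was 13.1-fold lower in S51A, at 0.722 FPKM in S51A and 9.45 FPKM in WT at 0 min. It was 10.2-fold lower at 15 min and 9.06-fold lower at 120 min. Crabp1, another retinoic acid binding protein gene, was at 1.17 FPKM in S51A and 3.05 FPKM in WT at 0 min. Both were named after their values were seen. At 15 min 6 of 9 listed were higher (background 49.9%) and at 120 min 3 of 5 (background 50.9%). Of 11 Cdx genes and other signals upstream of Hox genes, 3 were listed at 0 min, 2 higher and 1 lower in S51A, with no Cdx gene among them.

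Other genes of limb and axial position were mostly higher in S51A, 15 of 18 listed of 42 at 0 min (background 32.8% listed, 49.6% higher), 16 of 20 at 15 min (49.9% higher) and 12 of 16 at 120 min (50.9% higher). Barx1 was at 6.77 FPKM in S51A, Msx1 at 3.23 FPKM and the forelimb gene Tbx5 at 2.14 FPKM, and all were listed at 0 in WT. Pax1, a gene of the vertebral column, was 36.3-fold lower in S51A, at 1.34 FPKM in S51A and 48.5 FPKM in WT.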

How the data were processed

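Per the labels' protocols, libraries were strand-specific, made from polyadenylated RNA and sequenced as single reads on an Illumina NextSeq 500. STAR, Cufflinks and Cuffdiff and the genome mm10 are named in the submitters' processing notes, with no version, role or order. The authors' 3 deposited tables give log2 FPKM for each line, a log2 ratio (S51A minus WT) and a q-value, and list only genes marked significant. The authors wrote -10 for log2 FPKM where a line was at 0; it was taken as 0. A further numeric column (1 in each of the deposited tables) was not used. All q-values of the deposited tables were at most 0.05. Depth is unknown. Replicates had been combined, so no test across samples was made and a count test, planned only for counts per sample, was not run. FPKM was computed as 2 to the power of the deposited log2 value with pandas 2.3.3 on Python 3.11.15. Folds are ratios of these values. Starts had 1 added. Counting and medians were tested on simulated tables. Promoter sequences are from RefSeq (GRCm38.p6), matched by symbol. Genes were named by a rule on level (at least 5 FPKM), listing at all 3 times, or a line at 0, and the values of the other listed Hox genes were added after they were seen; in other lists, up to 4 genes by size of ratio at 0 min among those with at least 1 FPKM, and genes beside a cluster. The members and lists were chosen with earlier results of these data known. Alternatives tried were a q-value of 0.01, a minimum fold of 2, a minimum level of 1 FPKM, other pseudocounts (0.1 and 1 FPKM), other gene sets in the sums and a centred ratio. Some listed genes are not reported here by name, but remain in the counts and sums.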

Additional observations from a re-analysis of the deposited data

How the results depend on the processing

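Of the counts of Hox genes called, all stayed within 1.5 times of the reported count with a q-value of at most 0.01 or at least 1 FPKM in the higher line. Counting entries with several symbols left each count as it was. A minimum fold of 2 left 16 of the 25 genes at 15 min, 9 higher and 7 lower in S51A. The median log2 ratio of the listed Hox genes with values in both lines was -0.98 at 0 min, -0.52 at 15 min and -0.61 at 120 min, and reversed when the genes at 0 in WT were kept. It was then 0.34, 0.34 and 0.80 with a pseudocount of 0.1 FPKM, and 0.28, 0.29 and 0.66 with a pseudocount of 1 FPKM. Subtracting the median ratio of listed genes with at least 1 FPKM in both lines (-0.33 at 0 min, -0.25 at 15 min and -0.41 at 120 min), an alternative chosen after seeing the data, changed the sign of none of the 51 ratios. It moves all genes of a time alike, so it says little about single genes. Without the gene that has the highest FPKM of a cluster in that line and time, the share of the summed Hox FPKM at 0, 15 and 120 min was 17.7%, 21.4% and 12.9% in S51A against 3.6%, 5.58% and 2.62% in WT for cluster A. For cluster B it was 31.3%, 29.4% and 38.2% in S51A against 42.7%, 41.1% and 28% in WT. For cluster C it was 12.5%, 11% and 10.1% in S51A against 29%, 27% and 27.4% in WT. For cluster D it was 2.37%, 4.15% and 0.706% in S51A. Over only the genes listed at all 3 times, it was 26.9%, 27.2% and 17.9% in S51A against 4.94%, 4.45% and 3.27% in WT for cluster A. For cluster B it was 46.8%, 44.8% and 57% in S51A against 53%, 54.7% and 56.2% in WT. For cluster C it was 21.5%, 23% and 22.5% in S51A against 42%, 40.8% and 40.6% in WT. For cluster D it was 4.78%, 4.94% and 2.69% in S51A. The shares by zone over these genes, also chosen after seeing the data, put the low-numbered groups at 5.0%, 5.31% and 1.88% in S51A against 0.197%, 0.183% and 0.0979% in WT. In these sums cluster A stayed higher and cluster C lower as a share in S51A at each time. The median change with time was 0.09 in S51A and -0.06 in WT at 15 min, and 0.02 in S51A and -0.15 in WT at 120 min. With a pseudocount of 0.1 FPKM it was 0.12 in S51A and -0.085 in WT at 15 min, and -0.10 in S51A and -0.20 in WT at 120 min. Without centring it was 0.11 in S51A and -0.05 in WT at 15 min, and -0.16 in S51A and -0.25 in WT at 120 min. The sign of the S51A median at 120 min is therefore not fixed, and the cause was not tested.

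No paired analysis was possible because the tables hold 1 value per line and time. Leaving out each replicate was not run for the same reason. Depth limits the low values most, and how far could not be measured without counts.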
